A study of Mus musculus with 6 samples.

Results

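The 43 genes described here are regulators, enzymes and markers of the cell cycle. They were picked by name for their place in the cycle, with earlier results of these data known. They comprise 8 regulators of G1 and of the G1/S step, 14 genes of replication licensing and DNA synthesis, 19 genes of G2 and mitosis, and 2 inhibitors of cyclin-dependent kinases (CDKs). All 43 were among the 53715 genes of the deposited tables, and all 43 were among the 16391 genes that held enough reads to be tested. Total RNA had been sequenced from 3 Fam102a KO and 3 Wild-type libraries of osteoblastic cells, grown from the skull bones of newborn C57BL/6J mice for 7 days in medium that drives bone formation. In the Fam102a KO mice exons 2 and 3 of Fam102a were removed throughout the body with an Actb-driven Cre, and the Wild-type mice carried no such deletion. Replicates were numbered 1 to 3 in each genotype, and the tables of replicates 2 and 3 carried the name of a sequencing run that those of replicate 1 lacked. The study describes its data in general as coming from independent experiments, but whether these libraries came from separate mice or cultures is not stated, so p-values measure only the spread between these libraries, which may be technical.

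A dividing cell passes through G1, S, G2 and mitosis. D-type cyclins with Cdk4 or Cdk6 and then cyclin E relieve the Rb block on E2F factors, which switch on the genes of DNA replication, and the genes of G2 and mitosis follow later under B-Myb, FoxM1 and the DREAM complex. Calvarial cells divide early in culture and stop dividing as they become osteoblasts, and Cdkn1a (p21) and Cdkn1b (p27) hold CDKs in check.

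Promoters of such genes are known to carry short motifs through which these factors act. The sequences shown are the 100 bases that end just before the annotated gene start (RefSeq, GRCm38.p6), written 5′ to 3′ on the strand of the gene. Capitals mark, on either strand, the cell cycle homology region (CHR, TTTGAA or TTTAAA), to which DREAM is known to bind, and the CCAAT box of NF-Y. The first 5 genes act in mitosis. By CPM, the scaled counts given further on, each of them was lowest of all 6 libraries in Fam102a KO replicate 3. The same held for 16 of the 19 G2 and mitosis genes in all, among them Mki67 and Cdk1, whose promoters are not shown. Rrm1 had the smallest p between replicate numbers, and Ccne1 had the smallest p between genotypes. Kif11 lies at chr19:37376282-37376381 on the plus strand, Cdc20 at chr4:118437344-118437443 on the minus strand, Plk1 at chr7:122159335-122159434 on the plus strand, Ccnb1 at chr13:100786487-100786586 on the minus strand and Ccnb2 at chr9:70421555-70421654 on the minus strand. Rrm1 lies at chr7:102441595-102441694 on the plus strand and Ccne1 at chr7:38107491-38107590 on the minus strand.
Kif11: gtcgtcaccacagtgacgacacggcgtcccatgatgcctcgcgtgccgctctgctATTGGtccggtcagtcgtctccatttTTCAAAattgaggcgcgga
Cdc20: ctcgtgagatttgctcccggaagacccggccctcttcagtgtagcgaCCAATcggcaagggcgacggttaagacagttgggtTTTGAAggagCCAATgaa
Plk1: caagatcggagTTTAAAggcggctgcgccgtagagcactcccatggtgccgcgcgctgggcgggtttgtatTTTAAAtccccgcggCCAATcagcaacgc
Ccnb1: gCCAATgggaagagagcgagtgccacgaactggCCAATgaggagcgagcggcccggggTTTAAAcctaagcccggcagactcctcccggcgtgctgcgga
Ccnb2: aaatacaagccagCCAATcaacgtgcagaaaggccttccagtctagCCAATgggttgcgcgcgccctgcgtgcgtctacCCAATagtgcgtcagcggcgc
Rrm1: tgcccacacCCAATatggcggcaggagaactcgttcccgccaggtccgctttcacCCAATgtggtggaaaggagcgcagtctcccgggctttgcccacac
Ccne1: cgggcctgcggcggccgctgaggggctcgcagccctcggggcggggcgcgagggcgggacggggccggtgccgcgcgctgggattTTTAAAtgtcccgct
Counts were then made over the 250 bases before the start, on both strands, for the 34 of 43 members that the promoter table held. Of 15 promoters of G2 and mitosis genes, 14 held CCAAT and 10 held a CHR, and 9 held both. Of 14 promoters of licensing and DNA synthesis genes, 11 held CCAAT and 2 a CHR, and of 6 promoters of G1 and G1/S regulators 1 held CCAAT and 1 a CHR. Of all 32851 promoters of the table, 33.8% held CCAAT, 25.2% a CHR and 8.78% both. The E2F letters TTTCCCGC, TTTGGCGC or TTTCGCGC stood in 5 of 14 promoters of licensing and DNA synthesis genes, in 1 of 15 of G2 and mitosis genes, in 0 of 6 of G1 and G1/S regulators and in 1.53% of all promoters. These matches describe letters only.

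The libraries held 12934473, 21210150 and 16795786 gene reads in Fam102a KO cells and 12212169, 18986894 and 19985762 in Wild-type cells. Of these, 45.8 to 53.2% in Fam102a KO and 52.2 to 54.5% in Wild-type libraries lay in introns, and Rn7s1, a 7SL RNA, took 9.66 to 13.3% of gene reads in Fam102a KO and 15.8 to 16.6% in Wild-type libraries. Levels are given as CPM, counts scaled to a common library total by TMM, in which 1 read was worth 0.0494 to 0.0848 CPM. Fam102a itself had 13.3, 12.8 and 13.8 CPM in Fam102a KO and 14.4, 14.1 and 12.6 CPM in Wild-type libraries. The 2 deleted exons are a small part of the gene, so its reads do not check the labels.

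Per length, the members spanned a wide range. Mean levels over the 6 libraries ran to 81.6 RPKM (exon reads per kilobase, scaled by library reads) for Cdkn1a and 78.1 RPKM for Ccnd1 (cyclin D1), and down to 0.182 RPKM for Cdt1, a licensing factor with 8 to 12 reads per library. G1 and G1/S regulators lay between 1.08 (Cdk6) and 78.1 RPKM, licensing and DNA synthesis genes between 0.182 (Cdt1) and 23.7 RPKM (Rrm1), and G2 and mitosis genes between 1.55 (Cenpf) and 20.3 RPKM (Top2a).

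No cell cycle gene differed between the genotypes after adjustment. In the quasi-likelihood fit of edgeR, adjusted over all genes by Benjamini-Hochberg, 0 of 43 members passed a threshold of 0.05 (smallest adjusted p = 0.693), as against 0.0488% of all genes tested, and DESeq2 likewise called 0 members, against 0.752% of the genes it tested. At an unadjusted p under 0.05, 2 members were higher in Fam102a KO cells, where 2.92% of all genes were, and 0 were lower, where 3.12% of all genes were. The 2 higher members were Ccne1 (cyclin E1) and Cdkn1a. In sign, 24 members were higher and 19 lower, with a median log2 fold change of 0.02, against −0.00 over all genes. In 3 members (Ccne1, Cdk4 and Mcm2) every Fam102a KO library was above every Wild-type library, as in 5.48% of all genes, and in 0 members below, as in 5.61% of all genes.

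**Figure D1:**
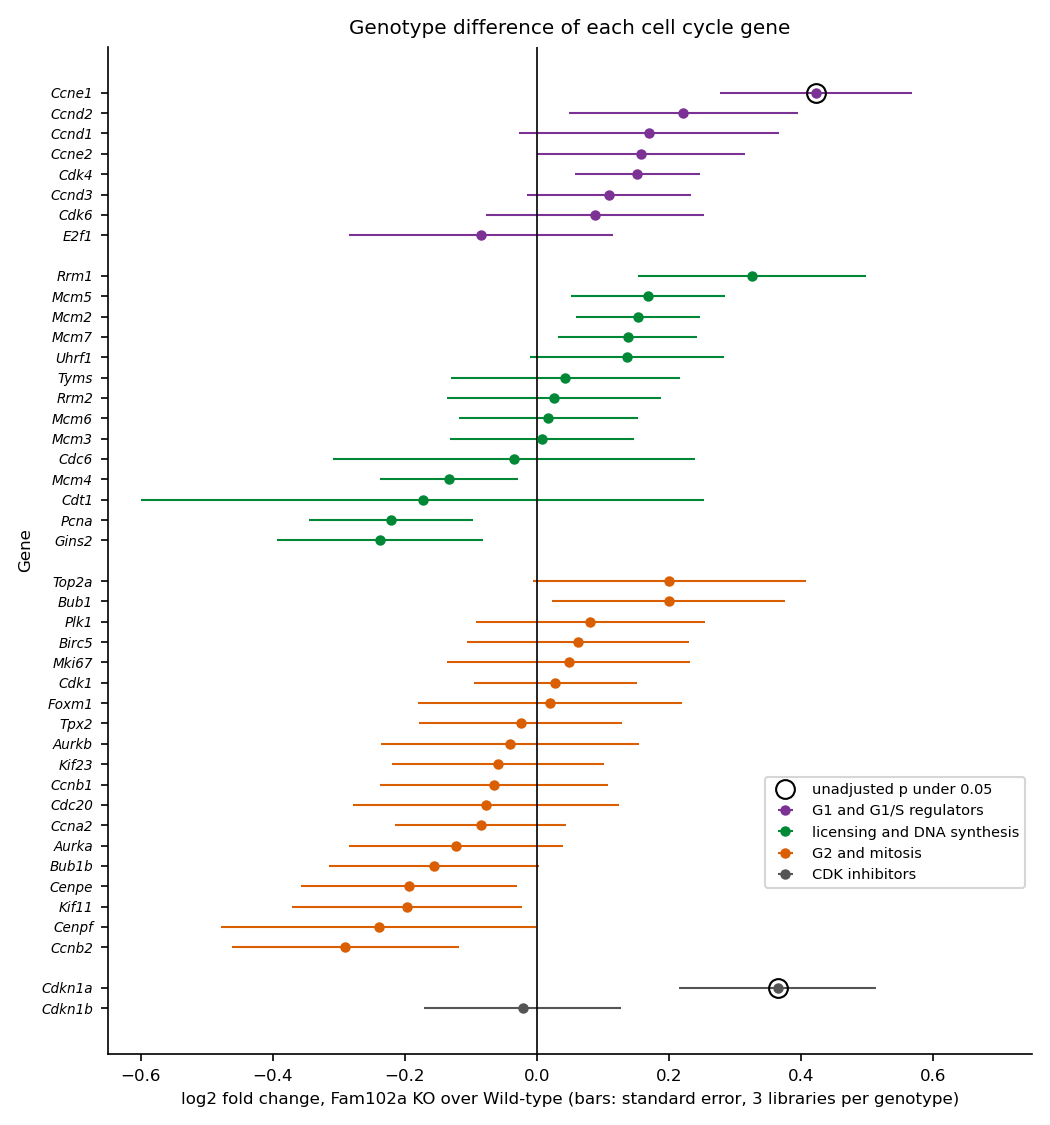
Log2 fold change (x axis, Fam102a KO over Wild-type, edgeR) of each of the 43 genes (y axis), ordered within its role group, with bars of 1 standard error. Rings mark Ccne1 (0.42) and Cdkn1a (0.36), the 2 genes at an unadjusted p under 0.05. Of the 8 G1 and G1/S regulators 7 lie right of 0, and of the 19 G2 and mitosis genes 7 do. On the RPKM scale 15 of the 19 were higher, where 70.0% of all genes were.

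With the replicate number as a block, 3 members were higher at an unadjusted p under 0.05 (Ccne1, Cdkn1a and Rrm1), where 4.09% of all genes were, and 1 was lower (Pcna), where 4.25% of all genes were, and none of the 43 passed after adjustment (smallest adjusted p = 0.36 from edgeR). Leaving out single libraries moved the counts at an unadjusted p to 1 higher and 1 lower without Fam102a KO replicate 1, 0 and 2 without Fam102a KO replicate 2, and 3 and 0 without Fam102a KO replicate 3. They were 2 and 0 without Wild-type replicate 1, 1 and 0 without Wild-type replicate 2 and 0 and 0 without Wild-type replicate 3. Over all genes these fits gave 1.77 to 4.36% higher and 1.98 to 4.62% lower. On the RPKM scale (limma, log2(RPKM + 0.1)) 36 members were higher and 7 lower, but there the median of all genes also stood at 0.11 and 70.0% of all genes were higher.

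Of the 8 G1 and G1/S regulators, 7 were higher in Fam102a KO cells in sign, and their median log2 fold change was 0.16. At an unadjusted p under 0.05, 1 was higher, where 2.92% of all genes were. Ccne1, whose product carries cells into S phase with Cdk2, had 16.2, 18.2 and 14.7 CPM in Fam102a KO libraries, against 13.3, 12.6 and 10.8 CPM in Wild-type libraries. The genotypes did not overlap, and the means were 16.4 ± 1.77 and 12.2 ± 1.32 CPM (SD, n = 3 each). This was a 1.34-fold difference (log2 fold change 0.42, standard error 0.146), and edgeR gave an unadjusted p = 0.0178 and, over all genes, adjusted p = 0.693. Over the alternatives tried, the log2 fold change of Ccne1 ran from 0.34 to 0.55 and its adjusted p from 0.353 to 1.00.

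Cdk4, the kinase partner of D-type cyclins, had 114, 112 and 118 CPM in Fam102a KO libraries and 102, 104 and 105 CPM in Wild-type libraries. Its libraries did not overlap either, but the difference was 0.15 on the log2 scale (standard error 0.0951, adjusted p = 0.976 from edgeR). Of its exon bases, 641 overlap Tspan31 on the opposite strand, and the labels and methods do not state whether counting was by strand.

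Ccnd1 and Ccnd2 encode D-type cyclins, which sense growth signals in G1. Ccnd1 had 441, 471 and 278 CPM in Fam102a KO and 356, 320 and 383 CPM in Wild-type libraries, so that Fam102a KO replicates 1 and 2 lay above all Wild-type libraries and replicate 3 below them. Of the Ccnd1 reads 59.7% were uniquely placed, and 1100 of its 4709 exon bases overlap LTO1 on the opposite strand. On uniquely placed reads its log2 fold change was 0.21. Ccnd2 had 515, 422 and 344 CPM in Fam102a KO and 422, 333 and 343 CPM in Wild-type libraries, with replicate 1 highest in both genotypes. The log2 fold changes were 0.17 for Ccnd1 (standard error 0.197) and 0.22 for Ccnd2 (standard error 0.174). E2f1, the transcription factor downstream of Rb, had 10.9, 17.5 and 15.5 CPM in Fam102a KO and 12.6, 17.3 and 16.6 CPM in Wild-type libraries. It was the only one of the 8 that was lower in Fam102a KO in sign (log2 fold change −0.09, standard error 0.2), and replicate 1 was lowest in both genotypes. Ccnd3, Cdk6 and Ccne2 had log2 fold changes of 0.11, 0.09 and 0.16. For Ccne2 (cyclin E2), 62.7% of the reads were uniquely placed, and on these reads alone its unadjusted p was 0.0286 (log2 fold change 0.51), against 0.342 on all gene reads, and neither passed after adjustment.

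Of the 14 genes of licensing and DNA synthesis, 9 were higher and 5 lower in sign, with a median log2 fold change of 0.02. At an unadjusted p under 0.05 there were 0, where 2.92% of all genes were higher and 3.12% lower. Mcm2, a subunit of the replicative helicase that is loaded in G1, had 35.5, 36.0 and 34.6 CPM in Fam102a KO libraries, against 31.8, 32.8 and 30.8 CPM in Wild-type libraries. The libraries did not overlap, at a difference of 0.15 on the log2 scale (standard error 0.0944, edgeR adjusted p = 0.976). The other helicase subunits, Mcm3 to Mcm7, had log2 fold changes between −0.13 (Mcm4) and 0.17 (Mcm5), and all of these overlapped between genotypes. Tyms (thymidylate synthase) and the helicase loaders Cdc6 and Cdt1 had log2 fold changes of 0.04, −0.03 and −0.17.

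Rrm1 and Rrm2 are the large and small subunits of ribonucleotide reductase, which makes the building blocks of DNA. Rrm1 had 168.8, 119.9 and 119.5 CPM in Fam102a KO and 128.5, 102.4 and 94.8 CPM in Wild-type libraries. In each numbered pair the Fam102a KO library was above the Wild-type library, and replicate 1 was highest in both genotypes. Its log2 fold change was 0.33 (standard error 0.173), with an unadjusted p of 0.0925 without and 0.00958 with the replicate block, and neither passed after adjustment. Rrm2 had 66.1, 65.5 and 43.9 CPM in Fam102a KO and 62.4, 53.6 and 56.4 CPM in Wild-type libraries, and the genotypes overlapped.

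Pcna, the sliding clamp of DNA polymerases, had 42.9, 50.3 and 39.0 CPM in Fam102a KO and 47.9, 56.3 and 49.8 CPM in Wild-type libraries. It was lower in the Fam102a KO library of each pair (log2 fold change −0.22, standard error 0.124, unadjusted p = 0.11 without and 0.0432 with the block, edgeR), and 65.1% of its reads were uniquely placed. Uhrf1, which keeps DNA methylation through replication, had 40.6, 41.8 and 30.5 CPM in Fam102a KO and 35.0, 37.6 and 30.1 CPM in Wild-type libraries, with replicate 3 lowest in both genotypes. Gins2, part of the helicase complex, had the lowest log2 fold change of the group (−0.24, standard error 0.156). Of its reads only 20.8% were uniquely placed, and 2758 of its 4097 exon bases overlap Gse1 on the opposite strand. On uniquely placed reads its log2 fold change was −0.38 (unadjusted p of 0.172).

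Of the 19 genes of G2 and mitosis, 7 were higher and 12 lower in sign by edgeR, with a median log2 fold change of −0.06. At an unadjusted p under 0.05 there were 0, where 2.92% of all genes were higher and 3.12% lower. On the RPKM scale (limma, log2(RPKM + 0.1)) 15 were higher and 4 lower, with a median of 0.07. There 70.0% of all genes were higher, and the median of all genes was 0.11. Mki67, which encodes the proliferation marker Ki-67, had 77.9, 57.7 and 47.4 CPM in Fam102a KO and 64.1, 62.1 and 50.8 CPM in Wild-type libraries. The genotypes overlapped (log2 fold change 0.05, standard error 0.184). Cdc20, the activator of the anaphase-promoting complex, had 24.9, 29.9 and 17.9 CPM in Fam102a KO and 20.7, 28.6 and 27.2 CPM in Wild-type libraries. Plk1, a mitotic kinase, had 24.9, 27.6 and 17.5 CPM in Fam102a KO and 20.4, 21.3 and 24.3 CPM in Wild-type libraries. In both genes Fam102a KO replicate 3 was the lowest and Fam102a KO replicate 2 the highest of the 6 libraries.

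Tpx2, a spindle assembly factor, had 49.9, 41.5 and 32.7 CPM in Fam102a KO and 45.5, 41.4 and 39.4 CPM in Wild-type libraries. The lowest log2 fold change of the group was that of Ccnb2 (cyclin B2), with 15.2, 16.9 and 10.8 CPM in Fam102a KO and 16.6, 18.2 and 17.8 CPM in Wild-type libraries (−0.29, standard error 0.173, adjusted p = 0.967 from edgeR). Cenpf, a kinetochore protein, had 23.4, 19.9 and 11.9 CPM in Fam102a KO and 25.0, 19.4 and 20.7 CPM in Wild-type libraries. In all 3 of these genes the lowest library was Fam102a KO replicate 3. Besides these and Top2a, 12 genes of the group remained, among them Cdk1, the kinase that starts mitosis, with its cyclins Ccna2 and Ccnb1, the kinases Aurka and Aurkb and the checkpoint kinase Bub1. Their log2 fold changes lay between −0.20 (Kif11, a spindle motor) and 0.20 (Bub1), and all overlapped between genotypes.

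Of the 2 CDK inhibitors, Cdkn1a had 227, 245 and 169.5 CPM in Fam102a KO libraries, against 173, 158 and 166 CPM in Wild-type libraries. Fam102a KO replicates 1 and 2 were above all Wild-type libraries, and replicate 3 lay between them. The means were 214 ± 39.2 and 166 ± 7.76 CPM (SD, n = 3 each), a 1.29-fold difference (log2 fold change 0.36, standard error 0.149, unadjusted p = 0.0371, adjusted p = 0.771 from edgeR). Over the alternatives its log2 fold change ran from 0.26 to 0.50 and its adjusted p from 0.183 to 1.00. Cdkn1b had 37.4, 28.6 and 38.9 CPM in Fam102a KO and 30.7, 35.3 and 40.2 CPM in Wild-type libraries, and the genotypes overlapped (log2 fold change −0.02, standard error 0.149).

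**Figure D2:**
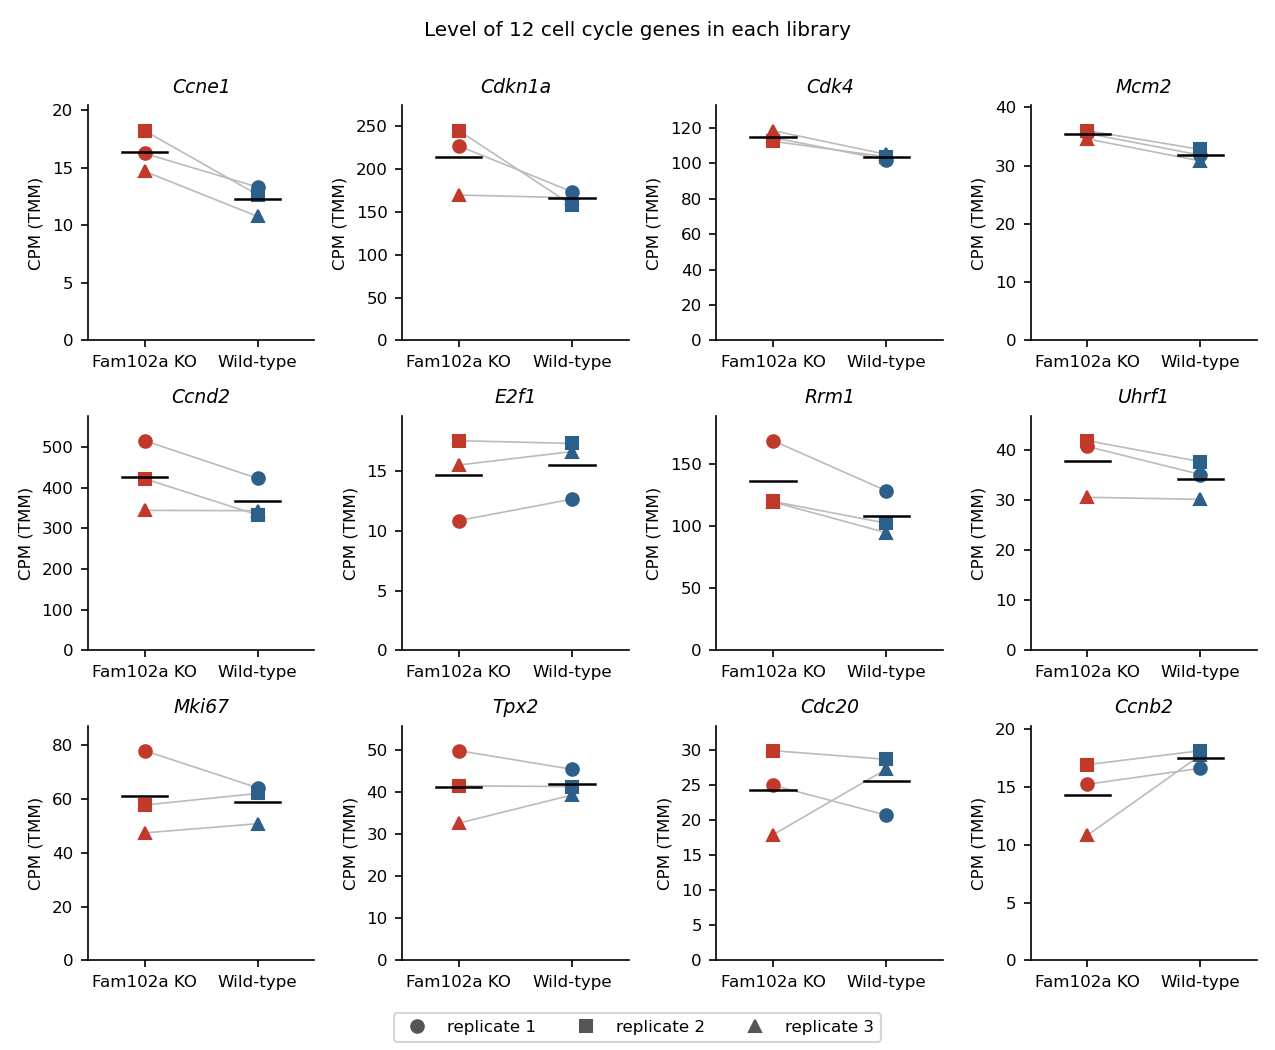
CPM (y axis, from 0) of 12 of the genes in each library, with Fam102a KO left and Wild-type right in each panel. Marker shapes give the replicate number, grey lines join libraries of the same number and black bars are means of 3 libraries. Ccne1, Cdk4 and Mcm2 show no overlap between the genotypes. Replicate 3 is the lowest Fam102a KO library in 10 of these 12 picked genes, in Rrm1 only by 119.5 against 119.9 CPM in replicate 2.

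The replicate number was tested in the same libraries. In a fit with genotype and replicate number as terms, 6 of 43 members had an unadjusted p under 0.05 for the replicate number, where 10.3% of all genes did. They were Rrm1, Mki67, E2f1, Uhrf1, Ccnd2 and Tpx2, with unadjusted p from 0.00685 (Rrm1) to 0.0489 (Tpx2). None passed after adjustment (smallest adjusted p = 0.375, Rrm1, edgeR with Benjamini-Hochberg adjustment), where 0.104% of all genes did, and DESeq2's likelihood ratio test called 0 members, where it called 1.29% of all genes. Replicate 1 over replicate 3 was 0.47 on the log2 scale for Rrm1 (standard error 0.11), 0.53 for Mki67 (standard error 0.133) and 0.44 for Ccnd2 (standard error 0.137). For E2f1 the same contrast was −0.45 (standard error 0.151). Replicate 2 over replicate 3 was 0.39 for Uhrf1.

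Set against the run label, 6 members were higher in replicate 1 than in replicates 2 and 3 at an unadjusted p under 0.05, where 4.65% of all genes were, and 1 (E2f1) was lower, where 5.15% of all genes were. The run label has 1 library of each genotype on its side without the label, and replicate number and run cannot be told apart for replicate 1. The count of members at an unadjusted p for the replicate number rested on single libraries, with 0 members without Fam102a KO replicate 1, 2 without Fam102a KO replicate 2, 3 without Fam102a KO replicate 3 and 18 without Wild-type replicate 3. These 4 fits gave 6.63, 7.39, 9.91 and 14.9% of all genes. Genotype by run label gave an unadjusted p of 0.0368 for Top2a and 0.0469 for Ccnd3, 2 of 43 members, where 2.77% of all genes did, and none passed after adjustment (edgeR adjusted p = 1.00 for both).

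Most members were lower in replicate 3 than in the other numbers. Replicate 1 over replicate 3 was above 0 in 36 of 43 members. Replicate 2 over replicate 3 was above 0 in 40 of 43 members (14 of 14 in licensing and DNA synthesis, 18 of 19 in G2 and mitosis), where it was above 0 in 50.7% of all genes, and its median was 0.23 on the log2 scale, against 0.00 over all genes. This count, like the next ones, was chosen after the values were seen and carries no test. By CPM, the lowest value among the G2 and mitosis genes lay mostly in 1 library. Fam102a KO replicate 3 was the lowest of the 6 libraries in 16 of 19 G2 and mitosis genes, 4 of 14 licensing and DNA synthesis genes and 1 of 8 G1 and G1/S regulators, as it was in 19.3% of all genes. Wild-type replicate 3 was the lowest in 6 of the 14 licensing and DNA synthesis genes and in 1 of the 19 G2 and mitosis genes. On the RPKM scale the lowest library was not the same for every gene. The lowest RPKM of Cdk1, Cdc20 and Birc5 (6.14, 10.4 and 3.21) lay in a Wild-type library.

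**Figure D3:**
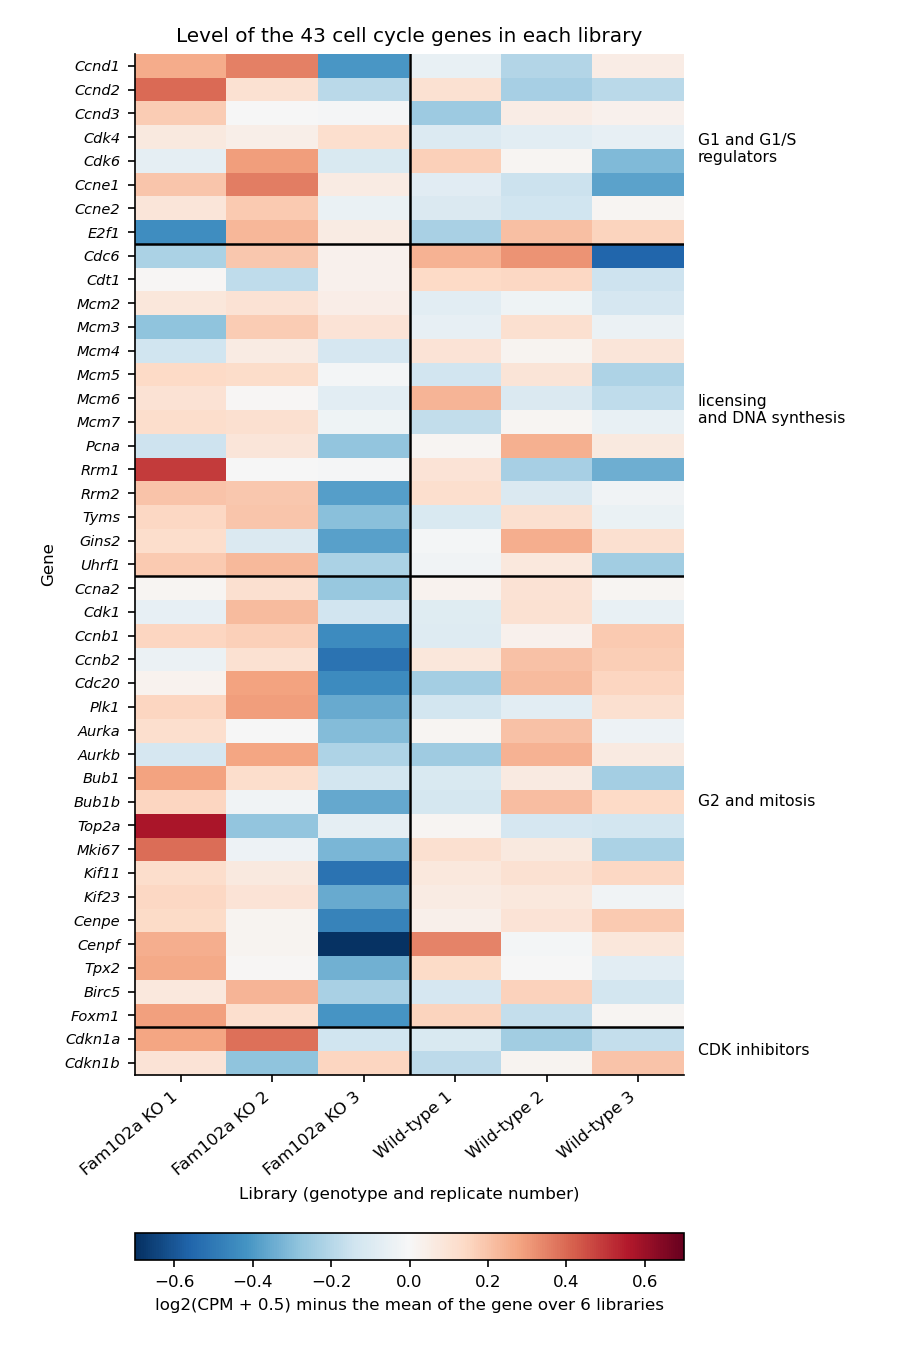
Level of each of the 43 genes (rows, by role group) in each library (columns, Fam102a KO left of the line, Wild-type right), as log2(CPM + 0.5) minus the mean of the gene over 6 libraries. The column of Fam102a KO replicate 3 is mostly blue over the G2 and mitosis genes, 16 of 19 of which were lowest there by CPM.

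The spread between Fam102a KO libraries was correspondingly wide. In all 19 G2 and mitosis genes the SD of log2 CPM was larger in Fam102a KO than in Wild-type libraries, with medians of 0.321 and 0.126. Over all genes tested 56.8% had the larger SD in Fam102a KO, with medians of 0.211 and 0.187. The summed level of the 19 genes was 726, 587 and 490.2 CPM in Fam102a KO libraries, against 594, 598 and 577 CPM in Wild-type libraries. Without Top2a it was 455, 437 and 316 CPM in Fam102a KO, against 411, 431 and 411 CPM in Wild-type libraries. The log2 ratio of the genotype means was 0.03 with and −0.05 without Top2a, and the SDs between libraries were 0.201 and 0.205. On summed RPKM the ratios were 0.12 with and 0.07 without Top2a.

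The sign of the genotype difference in G2 and mitosis genes depended on the library left out. Without Fam102a KO replicate 3, 13 of the 19 were higher and 6 lower, with a median log2 fold change of 0.10. Without Fam102a KO replicate 1, 5 were higher and 14 lower (median −0.15), and without Fam102a KO replicate 2, 3 were higher and 16 lower (median −0.15). With replicates 2 and 3 of both genotypes alone, 2 were higher and 17 lower (median −0.13). The median over all genes stayed between −0.01 and 0.01 in these fits.

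The other groups summed to 1292, 1222 and 944 CPM (G1 and G1/S regulators), 544, 513 and 446 CPM (licensing and DNA synthesis) and 264, 273 and 208 CPM (CDK inhibitors) in Fam102a KO libraries. In Wild-type libraries they summed to 1060.1, 967 and 1033 CPM, 493, 479 and 440.1 CPM, and 204, 193 and 206 CPM. Fam102a KO replicate 3 was the lowest Fam102a KO library in each group. The log2 ratios of the means were 0.18, 0.09 and 0.30, with SDs between libraries of 0.178, 0.120 and 0.155. In bulk RNA fewer cycling cells and less RNA per cell cannot be told apart.

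**Figure D4:**
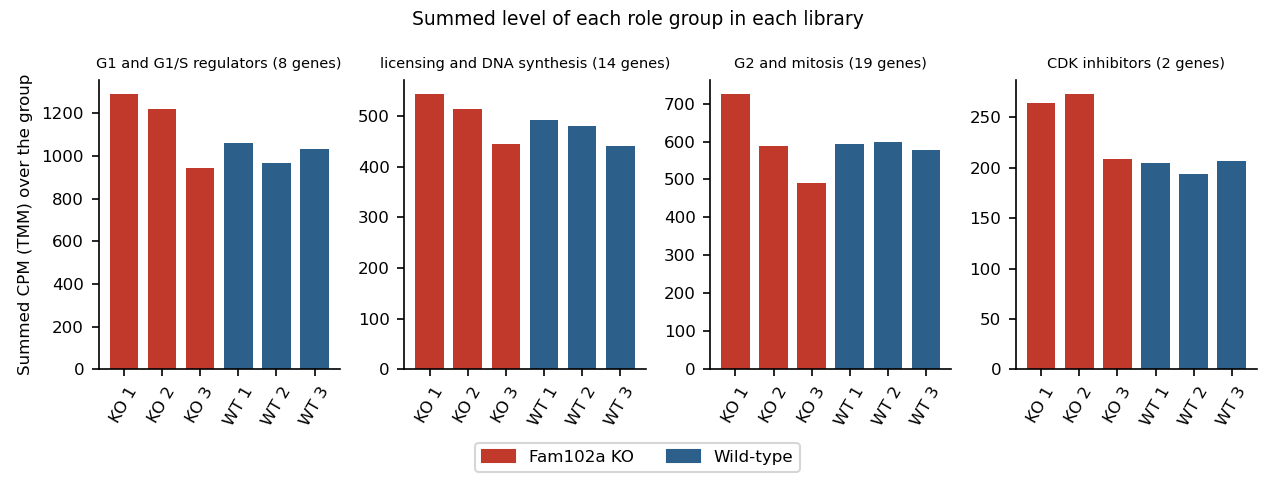
Summed CPM (y axis, from 0, scale of its own in each panel) of the genes of each role group in each library, with Fam102a KO (KO) bars left of Wild-type (WT) bars. For the 19 G2 and mitosis genes the Fam102a KO bars run from 490.2 to 726 CPM and the Wild-type bars from 577 to 598 CPM.

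Top2a, the topoisomerase that untangles chromosomes before mitosis, was highest in Fam102a KO replicate 1. It had 270.4, 150.2 and 174 CPM in Fam102a KO and 184, 167 and 166 CPM in Wild-type libraries. Only 39.3% of its reads were uniquely placed. Uniquely placed reads numbered 1124, 1412 and 1123 in Fam102a KO and 890, 1327 and 1337 in Wild-type libraries, and the other reads 2637, 1629 and 2118 in Fam102a KO and 1276, 1620 and 1870 in Wild-type libraries. On uniquely placed reads scaled by TMM, Top2a had 161, 138 and 116 CPM in Fam102a KO and 147, 148 and 134 CPM in Wild-type libraries. There Fam102a KO replicate 3 was the lowest library, where on all gene reads it was Fam102a KO replicate 2, and the genotype difference was −0.05 on the log2 scale, against 0.20 on all gene reads (unadjusted p = 0.712 and 0.36, edgeR). A gene of 122 bases, Gm23451, overlaps an exon of Top2a on the same strand. Of the 50-base windows of Top2a, 1.10% also occur in annotated transcripts of other genes, with 0.803% in Gm23451 itself. Where the reads that were not uniquely placed came from was not tested.

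**Figure D5:**
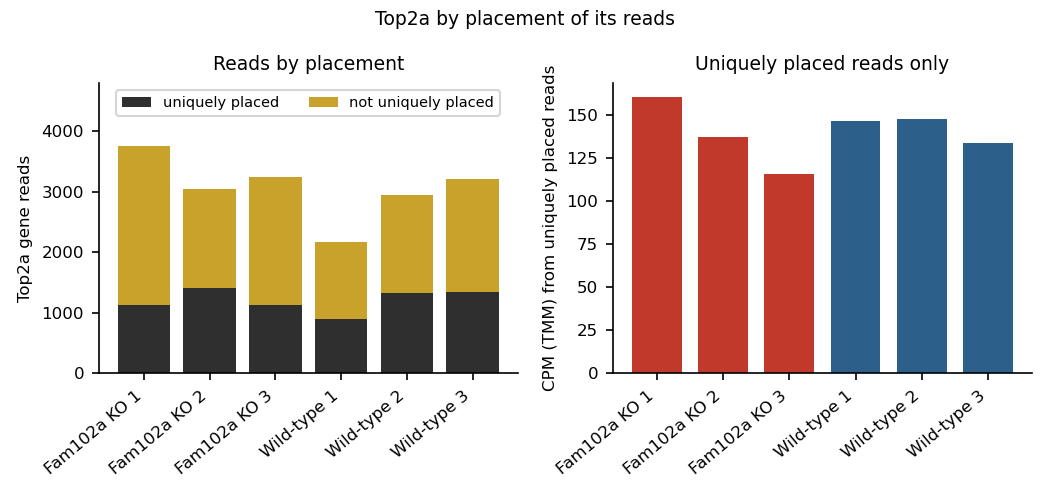
Left, Top2a gene reads (y axis) in each library, split into uniquely placed reads (dark) and others (yellow). Right, CPM of Top2a from uniquely placed reads alone, Fam102a KO (red) left of Wild-type (blue). Fam102a KO replicate 1 has 2637 reads that were not uniquely placed, the most of the 6 libraries.

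Further genes of the same processes were counted in the same way. These lists were also chosen with earlier results of these data known, and the 6 libraries are the same, so they are no independent check. Of 40 other G2 and mitosis genes, 14 were higher and 26 lower in Fam102a KO in sign (median log2 fold change −0.05) by edgeR. Before adjustment 0 were higher at a p under 0.05, where 2.92% of all genes were, and 1 was lower, where 3.12% were. By CPM the lowest library was Fam102a KO replicate 3 in 32 of the 40, and replicate 2 over replicate 3 was above 0 in 37. The 1 lower gene was Pttg1 (securin), with 6.76, 5.68 and 6.06 CPM in Fam102a KO and 6.96, 8.57 and 8.85 CPM in Wild-type libraries (log2 fold change −0.40, standard error 0.177, adjusted p = 0.816 from edgeR). For the replicate number 3 of the 40 had an unadjusted p under 0.05, where 10.3% of all genes did. They were Nuf2, Aspm and Tacc3, all of the spindle or kinetochore (0.0161, 0.0262 and 0.0337, edgeR).

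Of 30 other licensing and DNA synthesis genes, 20 were higher and 10 lower (median 0.06). At an unadjusted p under 0.05, 0 were higher and 0 lower, where 2.92% and 3.12% of all genes were. For the replicate number 1 of the 30, Lig1 (DNA ligase 1), was at an unadjusted p under 0.05 (0.0452, edgeR), where 10.3% of all genes were. By CPM Fam102a KO replicate 3 was lowest in 15 of the 30. Of 17 Rb, E2F and DREAM factors, 5 were higher and 12 lower. Tfdp2, a partner of E2F factors, had 22.9, 23.7 and 21.3 CPM in Fam102a KO and 28.0, 26.3 and 28.9 CPM in Wild-type libraries, with no overlap (log2 fold change −0.29, standard error 0.106, unadjusted p = 0.0222, adjusted p = 0.738 from edgeR). E2f7, a repressor among the E2F factors, was the 1 of the 17 at an unadjusted p under 0.05 for the replicate number (0.026, edgeR), where 10.3% of all genes were.

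Among 6 other CDK inhibitors, Cdkn2a, which encodes p16 and Arf, had the smallest p. It had 10.4, 10.9 and 11.7 CPM in Fam102a KO libraries, against 6.70, 7.15 and 7.20 CPM in Wild-type libraries. The genotypes did not overlap, and unlike the G2 and mitosis genes the value of Fam102a KO replicate 3 was not the lowest but the highest. The log2 fold change was 0.65 (standard error 0.147, unadjusted p = 0.00175), and it did not pass after adjustment over all genes (adjusted p = 0.298 from edgeR).

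Of 12 other p53 response genes, 11 were higher and 1 lower in Fam102a KO in sign (median 0.12). At an unadjusted p under 0.05, 1 was higher, where 2.92% of all genes were. That was Plk2, a stress-responsive kinase, with 39.3, 40.8 and 42.0 CPM in Fam102a KO and 30.5, 31.1 and 34.4 CPM in Wild-type libraries (log2 fold change 0.34, standard error 0.099, adjusted p = 0.566 from edgeR). Eda2r, a p53-induced receptor, had a log2 fold change of 0.42 (unadjusted p = 0.0627). Over all genes 49.8% were higher in sign, and no list was tested as a list.

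The 10 other genes most like the mean profile of the 19 G2 and mitosis genes over the 6 libraries were Gm43780, Fbxo5, Gm9843, Fanca, Gm6206, Selenoh, Rdm1, Cenpa, Snhg4 and Uqcrq, with Pearson's r from 0.981 to 0.997. They were picked as the highest of 14577 genes, so these r are a description. Cenpa is the centromeric histone, Fbxo5 (Emi1) restrains the anaphase-promoting complex and Fanca acts in repair of DNA crosslinks. Gm9843, Gm6206, Rdm1 and Snhg4 had 0.0627 to 5.63% uniquely placed reads, so their match is uncertain. Fbxo5 had 6.83, 6.62 and 5.04 CPM in Fam102a KO and 6.19, 6.47 and 6.42 CPM in Wild-type libraries.

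Markers of cell types were read beside these results. The bone collagens Col1a1 and Col1a2 were high in all 6 libraries (5737 to 9332 CPM), while Bglap (osteocalcin) had 53 reads in Fam102a KO replicate 2, 6 in Wild-type replicate 1 and 0 in the other 4 libraries, so this marker of mature osteoblasts was nearly absent. Of 7 tested osteoblast markers, 4 were lower and 3 higher in Fam102a KO in sign. At an unadjusted p under 0.05, where 3.12% of all genes were lower, 3 were lower, and for the same 3 every Fam102a KO library was below every Wild-type library (5.61% of all genes): Alpl, Sp7 and Runx2 (log2 fold changes −1.67, −0.98 and −0.40, adjusted p = 0.161, 0.193 and 0.603 from edgeR). The 3 higher in sign were Ibsp, Spp1 and Col1a2 (log2 fold changes 1.35, 0.27 and 0.02), and all overlapped. Ibsp had 3, 105 and 4 reads in Fam102a KO and 17, 12 and 5 reads in Wild-type libraries. Its fold change therefore rested on Fam102a KO replicate 2 alone. The 8 osteoblast markers summed to 15950 to 16881 CPM in Fam102a KO and 14770 to 18260 CPM in Wild-type libraries. Col1a1 and Col1a2 made up most of this sum (7527 and 9159 CPM of 16881 CPM in Fam102a KO replicate 1). It therefore says little of Alpl, Sp7 and Runx2.

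All 4 tested chondrocyte markers were lower in Fam102a KO in sign, and 1 was at an unadjusted p under 0.05, where 3.12% of all genes were. That was Col9a1 (log2 fold change −1.38, unadjusted p = 0.0145, adjusted p = 0.668 from edgeR). Its Fam102a KO libraries were all below its Wild-type libraries, as in 5.61% of all genes. Of the 4, Col2a1, Acan and Col9a1 were lowest in Fam102a KO replicate 3. Col9a1 was about as low in Fam102a KO replicate 1 (12.9 CPM, and 12.7 CPM in replicate 3). By replicate number Sox9 went the other way, with replicate 3 highest in both genotypes. Sox9 had 24.8, 20.2 and 41.5 CPM in Fam102a KO and 32.2, 31.9 and 46.8 CPM in Wild-type libraries. The 5 listed chondrocyte markers summed to 1789, 2111 and 966 CPM in Fam102a KO, against 2246, 2415 and 1899 CPM in Wild-type libraries. Macrophage markers summed to 366, 1221 and 1643 CPM in Fam102a KO and 754, 2120 and 791 CPM in Wild-type libraries, with Fam102a KO replicate 1 lowest. Schwann cell and neural crest markers summed to 20.3, 41.7 and 10.9 CPM in Fam102a KO and 13.2, 5.45 and 5.44 CPM in Wild-type libraries. All 3 tested were higher in Fam102a KO in sign, 2 of them at an unadjusted p under 0.05, where 2.92% of all genes were. These were Foxd3 and Sox10 (log2 fold change 2.14 for both, adjusted p = 0.528 and 0.757 from edgeR). Only Foxd3 had no overlap between genotypes, as in 5.48% of all genes. Endothelial, skeletal muscle, adipocyte and erythroid lists summed to at most 91.0, 22.6, 38.4 and 1.07 CPM in any library, and Hba-a1 was at 0 reads in all 6. The part of these cell types in the cell cycle results was not tested.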

How the data were processed

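Total RNA of 6 libraries (SMART-seq v4, Ion Proton) had been mapped by the authors in CLC Genomics Workbench, to mm10 per the submitters' processing notes. Neither the labels nor the methods state the mapping settings or strand use. The deposited tables give per gene the counts of total and uniquely placed gene reads and of exon reads, and RPKM, which the authors' tables hold as exon reads per kilobase relative to all gene reads in that library (recomputed for 34018 genes with exons).

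Total gene reads were fitted with edgeR 4.0.16 (R 4.3.3) by a robust quasi-likelihood fit with TMM scaling and filterByExpr (minimum count 10, minimum total 15, large n 10, minimum proportion 0.7), and p-values were adjusted by Benjamini-Hochberg over 16391 genes. Standard errors are the log2 fold change divided by the square root of F. Each library held 12212169 to 21210150 gene reads, with n = 3 per genotype. Same-numbered libraries deviated together from their group means (r = 0.264, 0.190 and 0.228 over 14619 genes, against −0.269 to 0.0719 for different numbers), so the numbers were taken to pair the libraries, and a fit with the number as a block was set beside the main fit, which has no block. The pairing rests on this check alone, since the meaning of the numbers is not stated. Deviations from a group mean sum to 0, so positive r for same numbers largely forces lower r for different numbers. The lower r is therefore not separate evidence of pairing. Fits with the number as a block, with run label, on uniquely placed or exon reads, with other scalings and filters, without each library, with DESeq2 1.42.0, and with limma 3.58.1 on log2(RPKM + 0.1) or log2(RPKM + 1) were alternatives. Given in full were members at an unadjusted p under 0.05 in the genotype or replicate number fit, members with no overlap between genotypes, and the 3 of each role group with the highest mean RPKM. Added were members with the extreme fold changes of a group, up to 4 genes of each other list by smallest p, and the 10 genes most correlated with the G2 and mitosis profile. Cenpf was named after its values were seen. The members and the lists were chosen with earlier results of these data known. Shared sequence was checked in 50-base windows, and promoters came from RefSeq (GRCm38.p6).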

Additional observations from a re-analysis of the deposited data

How the results depend on the processing

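In the genotype comparison, all 17 members described in full kept their side of the adjusted threshold in all 323 alternative values, and 9 of the 17 kept their sign throughout. Over all genes, 3 were higher and 5 lower after adjustment. The higher count was 1 with at least 10 reads in every library, 48 with DESeq2, 0 with limma at both pseudocounts, 169 with no filter, 5 with the replicate block, 0 with replicates 2 and 3 only, 6 with RLE scaling, and 0 to 5 leaving out single libraries. The lower count was 68 with DESeq2, 0 with limma, 171 with no filter, 0 with replicates 2 and 3 only, 8 on total exon reads, 3 without the robust fit, and 0 to 8 leaving out single libraries. Members higher at an unadjusted p (2) were 5 with limma at both pseudocounts (6.39 and 6.57% of all genes), 1 with replicates 2 and 3 only (2.68%), 6 with Student's test on RPKM (6.55%), and 0 to 3 leaving out single libraries (1.77 to 4.36%), against 2.92% of all genes without these changes. Members lower (0) were 1 with the replicate block (4.25% of all genes), 1 with replicates 2 and 3 only (2.39%), and 0 to 2 leaving out single libraries (1.98 to 4.62%). The block also brought Rrm1 under an unadjusted p of 0.05, and it changed no member's call after adjustment.

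For the replicate number, genes past adjustment (17) were 211 with DESeq2, 5 and 2 with limma, 1275 with no filter, 0 on total exon reads, 3 on unique exon reads, and 6 to 240 leaving out single libraries. Members at an unadjusted p (6) were 3 with limma (10.9 and 10.5% of all genes), 10 with no filter (10.2%), and 0 to 18 leaving out single libraries (6.63 to 14.9%). Members past adjustment (0) were 3 with no filter (Top2a, Rrm1 and Mki67), where 1275 of 35404 genes were. The summed log2 ratio of the CDK inhibitors (0.30) was 0.46 on summed RPKM, and that of the other groups also went up there, to 0.30 (G1 and G1/S regulators), 0.19 (licensing and DNA synthesis) and 0.12 (G2 and mitosis), from 0.18, 0.09 and 0.03. Without Top2a that of G2 and mitosis was −0.05, and 0.07 on summed RPKM. Sums without Top2a were chosen after seeing the data. The cause of these shifts was not tested. With 3 libraries per genotype the precision is limited, and for Cdt1, at 8 to 12 reads per library, it is limited by depth. Pseudocounts do not apply to summed RPKM, and Student's test gave no adjusted p.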
